A study of Homo sapiens with 6 samples.

Results

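The 8 genes described here are EXOSC8, SUPT20H, UFM1, PROSER1, NHLRC3, LHFP, COG6 and FOXO1, which lie along the long arm of chromosome 13, band 13q13 and just beyond it. They were picked by name as NHLRC3, PROSER1 and their neighbours, and they are 8 of the 34114 genes in the table. The choice was made because NHLRC3 and PROSER1 had almost no reads in one cell line, so the difference of that line from the others is given as a description, without a test.

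Messenger RNA was sequenced from 3 established human acute myeloid leukaemia cell lines, MOLM-14, NOMO-1 and SKM-1. Each line was sampled at 72 h after receiving either a control shRNA, a scrambled short hairpin RNA, or an shRNA that lowers NCAM1, a surface adhesion protein (CD56). The design has 1 library per line and condition, which gives 3 control and 3 knockdown libraries. The column label of the SKM-1 knockdown library carries an extra letter that those of the other lines lack. Its meaning is not stated, so whether the same hairpin served all 3 lines is not known. Nothing in the labels says that a library was repeated on another culture of the same line, so p-values measure only the spread between these libraries.

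Depth was 41916991 to 47688779 gene-assigned reads per library, and 1 read was worth 0.912 to 1.12 normalized counts, the unit of all levels below unless stated. NCAM1 went from 6004 to 1896 in MOLM-14, from 1163 to 312 in NOMO-1 and from 12537 to 101 in SKM-1. Of 12 myeloid markers, 10 to 11 reached 50 normalized counts in every library. The summed level of 4 T-cell markers ranged from 6.10 to 4111, with the high values in NOMO-1, and that of 4 B-cell markers from 102 to 2164. Epithelial markers summed to 355 to 3546, stromal markers to 32.8 to 100.1, and the 1 erythroid marker with a row was at 0 to 3.05. The part of these in the results below was not tested.

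The members have separate jobs in the cell and are joined here by position alone. EXOSC8 is a ring subunit of the RNA exosome, the complex that trims and degrades RNA from its 3′ end. SUPT20H is a core subunit of SAGA, a co-activator complex that acetylates histones, and UFM1 is a small ubiquitin-like protein that is attached to other proteins, many of them at the endoplasmic reticulum. PROSER1 is a proline- and serine-rich protein linked to chromatin complexes that hold TET enzymes and the histone demethylase KDM6A (UTX). NHLRC3 is a little-studied protein with NHL repeats. LHFP is a membrane protein of a tetraspan-like family, first described as a fusion partner in a lipoma. COG6 is a subunit of the conserved oligomeric Golgi complex, which tethers vesicles at the Golgi, and FOXO1 is a forkhead transcription factor held out of the nucleus by AKT signalling.

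NHLRC3 and PROSER1 start next to each other on opposite strands, so the stretch that lies upstream of one is also upstream of the other. In RefSeq (GRCh38.p14, another build than the hg19 of the counts) the starts of PROSER1, on the minus strand, and NHLRC3, on the plus strand, are head to head with 221 bases between them, at chr13:39038090-39038310. That stretch is shown with those of the same length just upstream of UFM1 (chr13:38349630-38349850) and COG6 (chr13:39655406-39655626), the nearest members on each side that have an entry in the promoter table. All 3 are written on the plus strand, and capitals mark matches to the motifs named after them.
PROSER1/NHLRC3: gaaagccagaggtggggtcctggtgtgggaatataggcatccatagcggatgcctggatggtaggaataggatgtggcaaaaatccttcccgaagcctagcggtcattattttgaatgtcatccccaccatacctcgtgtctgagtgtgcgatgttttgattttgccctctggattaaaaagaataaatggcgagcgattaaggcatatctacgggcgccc
UFM1: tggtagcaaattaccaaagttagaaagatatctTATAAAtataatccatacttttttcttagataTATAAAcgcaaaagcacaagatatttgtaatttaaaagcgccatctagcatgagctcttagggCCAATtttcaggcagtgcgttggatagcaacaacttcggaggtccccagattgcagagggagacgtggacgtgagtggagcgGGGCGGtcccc
COG6: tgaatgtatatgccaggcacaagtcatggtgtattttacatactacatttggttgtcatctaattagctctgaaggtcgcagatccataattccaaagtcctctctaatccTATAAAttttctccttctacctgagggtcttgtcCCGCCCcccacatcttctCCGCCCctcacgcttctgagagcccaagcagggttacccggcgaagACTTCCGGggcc

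The stretch between PROSER1 and NHLRC3 had a GC content of 48.9% and held none of the motifs searched. Motifs were looked for on both strands and at any distance from the start, so each is a match of letters and not a known working site. Their share was taken over 35116 upstream stretches of the same length. The TATA box, searched as TATAAA, is in 9.53% of these stretches and the CCAAT box in 29.8%. The GC box, searched as GGGCGG, is in 41.3%. The ETS site, searched as CCGGAAGT, is in 3.29%. The palindromic NRF1 site is in 0.997%, and the YY1 site, searched as AANATGGCG, in 1.26%. The UFM1 stretch, at 42.5% GC, held 2 TATA boxes, 1 CCAAT box and 1 GC box. The COG6 stretch, at 48.9% GC, held 1 TATA box, 2 GC boxes and 1 ETS site. Over all stretches the median GC content was 58.8%, and 28.8% of them had a lower GC content than the one between PROSER1 and NHLRC3. A head-to-head start within 500 bases is common: 5007 of 27305 genes in the promoter table have one (18.3%), against 2 of the 7 members with an entry. RefSeq lists another NHLRC3 start 145 bases downstream of the first.

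NHLRC3 and PROSER1 were almost without reads in both MOLM-14 libraries and were among the well-expressed genes of NOMO-1 and SKM-1. NHLRC3 (ENSG00000188811) had 1.12 normalized counts in the MOLM-14 control library and 1.04 in its knockdown library. It had 2504 and 2127 in the NOMO-1 control and knockdown libraries, and 2961 and 3125 in those of SKM-1. The MOLM-14 values stand for 1 read in each library, with an exact 95% Poisson interval of 0.0253 to 5.57 reads.

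PROSER1 (ENSG00000120685) had 4.46 and 2.09 normalized counts in the MOLM-14 control and knockdown libraries, that is 4 and 2 reads. In NOMO-1 it had 4326 and 4264, and in SKM-1 4599 and 5128. The MOLM-14 values of both genes lie far below every library of the other lines. These are bulk libraries, so fewer cells with the transcript and less transcript per cell cannot be told apart. DNA was not measured, so whether the genes are missing from the genome of MOLM-14 or present and silent was not tested.

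From the summed reads of a line, NHLRC3 was 2144-fold higher in NOMO-1 than in MOLM-14, with an exact conditional 95% interval of 593 to 17709 from 4982 against 2 reads. In SKM-1 it was 2826-fold higher (782 to 23338, 6318 reads). PROSER1 was 1327-fold higher in NOMO-1 (610 to 3618, 9254 against 6 reads) and 1507-fold higher in SKM-1 (692 to 4109, 10111 reads). The intervals are wide because they rest on a few MOLM-14 reads, and they cover counting error only. On the log2(normalized count + 1) scale, which understates such differences, the difference of the MOLM-14 mean from the mean of the other lines was -10.32 for NHLRC3 and -10.12 for PROSER1.

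The 6 other members were read in MOLM-14 at ordinary levels. LHFP, the next gene after NHLRC3, was the lowest of them and the nearest member outside the limit of 10 normalized counts used for a gene near 0, while PROSER1 was the nearest inside it. LHFP (ENSG00000183722) had 332 and 215 in the MOLM-14 control and knockdown libraries, 364 and 701 in NOMO-1, and 431 and 617 in SKM-1. Both MOLM-14 values were below all the others, but the higher of them came close to the NOMO-1 control. From summed reads LHFP in MOLM-14 was at 0.508 of its NOMO-1 level and 0.514 of its SKM-1 level. The log2 difference of -0.93 from the other lines was -0.25 in the control libraries alone and -1.61 in the knockdown libraries alone, so most of it lay in the knockdown libraries.

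UFM1 (ENSG00000120686), the member on the other side of the pair, was higher in MOLM-14 than in any other library. It had 5043 and 5322 in MOLM-14, 2814 and 2690 in NOMO-1, and 3119 and 3362 in SKM-1. The MOLM-14 mean was 1.73 times the mean of the other lines. COG6 (ENSG00000133103), beyond LHFP, followed the same order with 2615 and 2857 in MOLM-14, 1710 and 1395 in NOMO-1, and 1641 and 1498 in SKM-1, or 1.75 times the others. The NOMO-1 and SKM-1 values of COG6 overlapped.

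EXOSC8 (ENSG00000120699) had 5808 and 5454 in MOLM-14, 3608 and 3860 in NOMO-1, and 2858 and 2015 in SKM-1, so the lines followed each other without overlap. SUPT20H (ENSG00000102710) had 5265 and 5744 in MOLM-14, 3557 and 3782 in NOMO-1, and 2890 and 4050 in SKM-1, where NOMO-1 fell inside the range of SKM-1. EXOSC8 overlaps both SUPT20H and ALG5, which lie on the other strand, in GENCODE release 29. Whether the counting used strand is not stated in these sources, and reads from the overlaps cannot be told apart.

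FOXO1 (ENSG00000150907) was the member with the largest range among the lines that expressed it, and MOLM-14 was in the middle. It had 416 and 779 in MOLM-14, 233 and 235 in NOMO-1, and 1033 and 1539 in SKM-1, and no line overlapped another. In all, 4 members (EXOSC8, SUPT20H, UFM1 and COG6) were higher in both MOLM-14 libraries than in the 4 others, 3 (NHLRC3, PROSER1 and LHFP) were lower, and FOXO1 was neither. Among 14884 genes with a mean of 50 or more, 19.2% were higher in that sense and 19.9% lower. The members were chosen with these values known, so nothing is read from the counts.

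**Figure D1:**
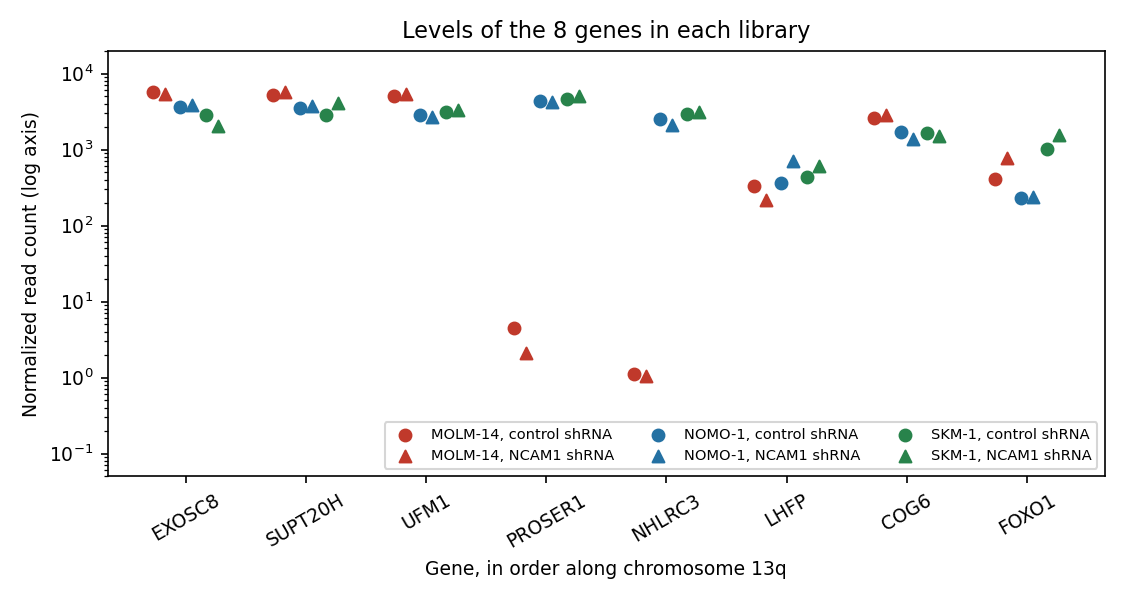
Normalized read counts of the 8 genes, in chromosome order, in each of the 6 libraries (log axis), with cell line and shRNA marked by colour and symbol. NHLRC3 and PROSER1 sit at 1.04 to 4.46 in the MOLM-14 libraries and at 2127 to 5128 in the 4 others, while the remaining members are at 215 or more in MOLM-14.

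Between genes, levels were compared per kilobase of exon. In MOLM-14 EXOSC8 was at 1551 normalized counts per kilobase, UFM1 at 1183, SUPT20H at 503, COG6 at 340, FOXO1 at 95.9 and LHFP at 60.0. PROSER1 and NHLRC3 followed at 0.448 and 0.168. In NOMO-1 PROSER1, at 587, came after EXOSC8 (1029) and UFM1 (628), and NHLRC3, at 361, came next, just above SUPT20H (336). COG6 (193), LHFP (117) and FOXO1 (37.6) were lower there. In SKM-1 PROSER1 (665) lay beside EXOSC8 (671) and below UFM1 (740), and NHLRC3 (475) again came next, above SUPT20H (317), FOXO1 (206), COG6 (195) and LHFP (115). Where they were expressed, both genes were in the upper part of the 8 on this scale. The scale divides by all annotated exon bases of a gene, so the order depends on the annotation. By normalized counts alone SUPT20H was above NHLRC3, at 3669 against 2315 in NOMO-1 and 3470 against 3043 in SKM-1. PROSER1 was then the highest member in both lines. The pair was chosen as present there, so its place is a description only.

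A gene was called near 0 in a line when it was under 10 normalized counts in both libraries of that line and at 100 or more in each of the 4 others. In MOLM-14 this held for 108 of 11076 genes (0.975%), in NOMO-1 for 68 of 10941 (0.622%) and in SKM-1 for 86 of 11286 (0.762%). Genes near 0 in a single line were therefore found in all 3 lines. Whether they are missing or silent there was not tested. Of the 8 members, 2 were near 0 in MOLM-14, which is what they were chosen for.

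Within the 108 genes the pair stood at the upper end of expression in the other lines. Ranked by the lowest of the 4 other libraries, PROSER1 was the second, at 4264, and NHLRC3 the third, at 2127, behind SCRN1 at 6224. The median gene of the 108 was at 261, and 4 of the 108 reached 2000 in all 4 libraries. At most 6 reads over both MOLM-14 libraries were found for 71 of the 108. The levels of the pair were also even across the other libraries: the highest was 1.20 times the lowest for PROSER1 and 1.47 times for NHLRC3. The median over the 108 genes was 3.55, and 9 of them were under 1.5. Other members were as even, with 1.23 for COG6, 1.25 for UFM1 and 1.40 for SUPT20H, while EXOSC8, LHFP and FOXO1 had 1.92 to 6.60. The pair was chosen as present in these libraries, so its rank and evenness are a description only.

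**Figure D2:**
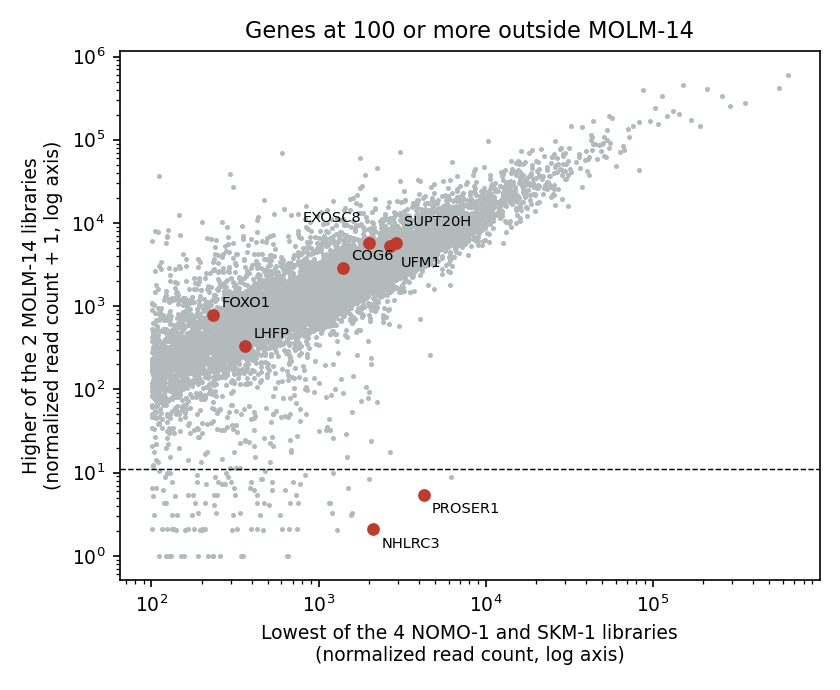
Each grey point is 1 of the 11076 genes at 100 normalized counts or more in all 4 NOMO-1 and SKM-1 libraries, placed by its lowest level there (horizontal, log axis) and by the higher of its 2 MOLM-14 levels plus 1 (vertical, log axis), with the 8 members in red. The dashed line marks the limit of 10, below which lie 108 genes, and PROSER1 and NHLRC3 lie there at 4264 and 2127 on the horizontal axis while the other 6 members lie within the main cloud.

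Runs of protein-coding genes near 0 were counted in the GENCODE gene order, among only the genes at 100 or more in the other lines. Genes under that limit were skipped, so the genes of a run need not be direct neighbours. MOLM-14 had 5 such runs, each of 2 genes, and PROSER1 with NHLRC3 was one of them. NOMO-1 had 4 runs with 16 genes, the longest of 10 genes, and SKM-1 had 1 run of 2 genes. Among the genes matched to GENCODE, 3 lie between UFM1 and LHFP: PROSER1, NHLRC3 and FREM2, an extracellular matrix protein gene. Gene IDs without a match could not be placed. FREM2 was at 0 in both MOLM-14 libraries, at 0.945 and 0.912 in NOMO-1, and at 17.3 and 53.3 in SKM-1. It was too low in NOMO-1 to meet the limit of 100, so its 0 in MOLM-14 is near the level in another line. STOML3, which lies there too, has no counts under that name here.

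The surrounding window of 33 listed genes, from MAB21L1 to VWA8, was read in the same way. Of the 26 window genes with a mean of 50 or more, 18 were not members, and 9 of these 18 were higher in both MOLM-14 libraries than in all 4 others. ELF1, an ETS transcription factor, was 1.97 times the other lines, WBP4, a splicing factor, 2.23 times and MTRF1, a mitochondrial release factor, 2.07 times. The other 6 of the 9 were CCDC169, ALG5, MRPS31, SLC25A15, KBTBD6 and VWA8. MAB21L1 and SMAD9 were lower in MOLM-14 than in all 4 others, with log2 differences of -3.44 and -0.63. Both were low genes there, at a mean of 3.83 and 75.5. MAB21L1 was low in NOMO-1 too (27.4 and 26.5) and in the SKM-1 control (19.3). It reached a mean of 50 through the SKM-1 knockdown library alone, at 360. The remaining 7 overlapped, among them SPG20, which encodes spartin (-0.08), and the cyclin gene CCNA1 (-0.44).

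The median log2 difference of the 18 genes was 0.48, against 0.0091 for all genes of mean 50 or more. Without NHLRC3 and PROSER1 the whole window also had a median of 0.48. UFM1, COG6, EXOSC8 and SUPT20H, at 0.63 to 0.91, were above the median of chromosome 13. Its 225 protein-coding genes with a mean of 50 or more had a median of 0.49, and 45.3% of them were higher in MOLM-14 than in all 4 others. Among the other autosomes the medians ran from -0.28 to 0.73, and 1 autosome, chromosome 12, was above chromosome 13. NHLRC3 and PROSER1 were thus near 0 on a chromosome whose genes of mean 50 or more were, at the median, on the high side in this line.

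**Figure D3:**
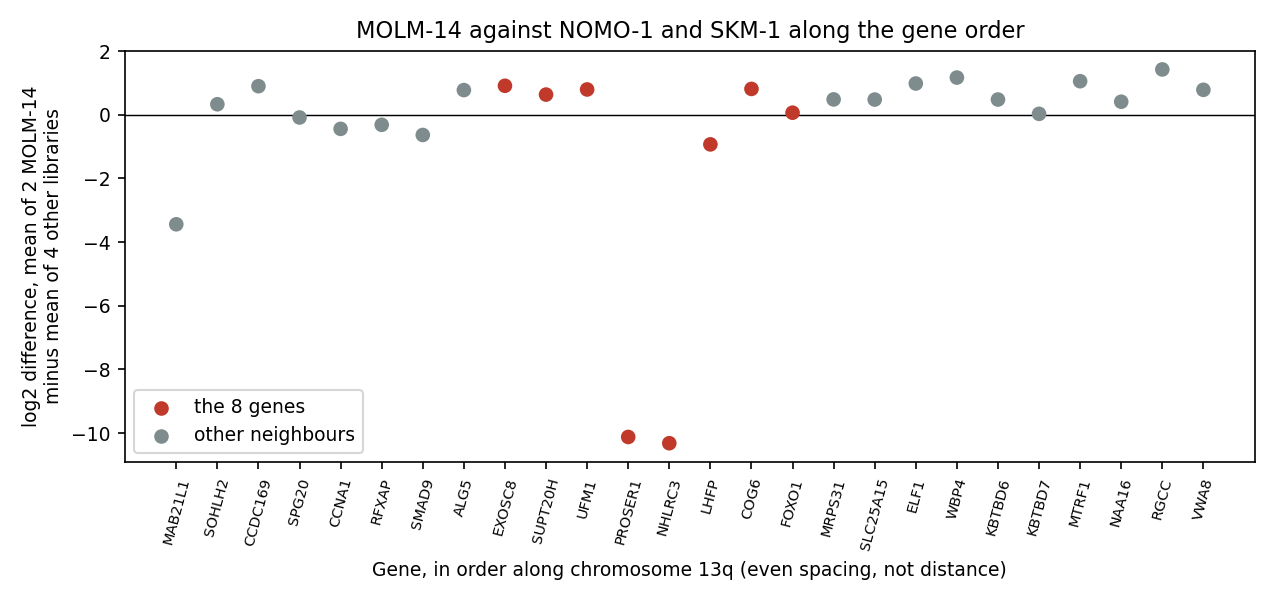
Log2 difference of the MOLM-14 mean from the mean of the 4 NOMO-1 and SKM-1 libraries, on the log2(normalized count + 1) scale, for the window genes with a mean of 50 or more in chromosome order, with the 8 members marked. PROSER1 (-10.12) and NHLRC3 (-10.32) lie alone at the bottom, MAB21L1 is at -3.44, and most other genes are at or above 0. MAB21L1 passes the limit of 50 through the SKM-1 knockdown library alone.

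NOMO-1 and SKM-1 were compared with each other in the limma fit over all 19575 genes with a mean of 10 or more. The choice of the genes turned on MOLM-14, so this contrast is less bound to it, although the requirement of expression in both lines favours genes that do not differ much. At an adjusted p under 0.05, 2723 genes differed (13.9%), and of the members 1 did. FOXO1 was lower in NOMO-1 by a log2 difference of -2.42 (SE 0.32, limma adjusted p = 0.0133), from a mean of 234 against 1286, a 5.49-fold difference. Lower calls in NOMO-1 made up 6.04% of the genes tested.

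The FOXO1 call held with edgeR (adjusted p = 0.0249) and with DESeq2 (adjusted p = 4.68e-08) on the recovered reads. With 1 NOMO-1 library left out no gene of the table was called. The limma adjusted p for FOXO1 was then 0.170 without the NOMO-1 knockdown library and 0.119 without the NOMO-1 control, with log2 differences of -2.06 and -2.79. Without the SKM-1 knockdown or the SKM-1 control library it was 0.0254 and 0.0205.

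The pair itself was not called between these lines. NHLRC3 had a log2 difference of NOMO-1 from SKM-1 of -0.40 (SE 0.30, limma adjusted p = 0.423) and PROSER1 of -0.18 (SE 0.35, limma adjusted p = 0.779). EXOSC8, at 0.64 (SE 0.24), had a limma adjusted p of 0.151. The limma adjusted p of SUPT20H, UFM1, LHFP and COG6 lay between 0.475 and 0.973. These values do not show that the lines have equal levels.

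The NCAM1 knockdown was compared with the control shRNA over the 3 lines, with the line as a block. In the limma test no gene of 19575 passed an adjusted p of 0.05 (0%), and 877 had an unadjusted p under 0.05. edgeR also called 0 genes, with 863 under an unadjusted 0.05, and DESeq2 called 43, with 1102. No member was called by any of the 3 tools, and none had an unadjusted limma p under 0.05.

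FOXO1 had the largest mean difference of the members. Its knockdown library was above the control library in 3 of 3 lines, by a mean log2 difference of 0.50 ± 0.45 (SD, n = 3 lines; limma SE 0.26, adjusted p = 0.779). From its reads the ratio of knockdown to control was 1.87 in MOLM-14 (exact conditional 95% interval 1.65 to 2.13), 1.01 in NOMO-1 (0.844 to 1.21) and 1.49 in SKM-1 (1.38 to 1.61). The ratios in MOLM-14 and SKM-1 exceed counting error, and that in NOMO-1 does not.

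The LHFP ratios lay on both sides of 1. The ratio was 0.647 in MOLM-14 (0.539 to 0.775), 1.93 in NOMO-1 (1.70 to 2.18) and 1.43 in SKM-1 (1.27 to 1.62), a mean log2 difference of 0.28 ± 0.81 (SD, n = 3 lines; limma adjusted p = 0.840). Each of the 3 single-line ratios exceeds counting error, but there is no replicate within a line to set them against. Whether the lines differ in this was not tested.

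NHLRC3 had a ratio of 0.849 in NOMO-1 (0.803 to 0.898) and 1.06 in SKM-1 (1.00 to 1.11), and PROSER1 one of 0.986 in NOMO-1 (0.946 to 1.03) and 1.12 in SKM-1 (1.07 to 1.16). In MOLM-14 their few reads allow almost any ratio, 0.0119 to 73.5 for NHLRC3. The mean log2 differences were -0.069 ± 0.16 for NHLRC3 and -0.23 ± 0.52 for PROSER1 (SD, n = 3 lines; limma adjusted p = 0.939 and 0.832). Without MOLM-14 the PROSER1 difference was 0.068.

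The 4 remaining members had mean log2 differences from -0.17 to 0.23. SUPT20H was above its control in 3 of 3 lines (0.23 ± 0.22, limma adjusted p = 0.779), with its largest ratio, 1.40, in SKM-1. EXOSC8 (-0.17 ± 0.31, limma adjusted p = 0.822) had a ratio of 0.705 in SKM-1 and of 0.939 and 1.07 in MOLM-14 and NOMO-1. UFM1 (0.040 ± 0.092) had the smallest difference of the 8 and COG6 had -0.099 ± 0.21, with limma adjusted p of 0.947 and 0.886.

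Size alone was also counted within each line, among genes at 100 or more in 1 of its libraries, with a 1.5-fold limit chosen after the values had been seen. In MOLM-14, 2 of 6 members (LHFP and FOXO1) passed it, against 7.2% of 12614 genes. In NOMO-1, 1 of 8 passed (LHFP, against 22.7%), and in SKM-1 0 of 8 passed, against 49.7%. At 2-fold no member passed in any line, where 2.16%, 7.71% and 28.8% of genes did.

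**Figure D4:**
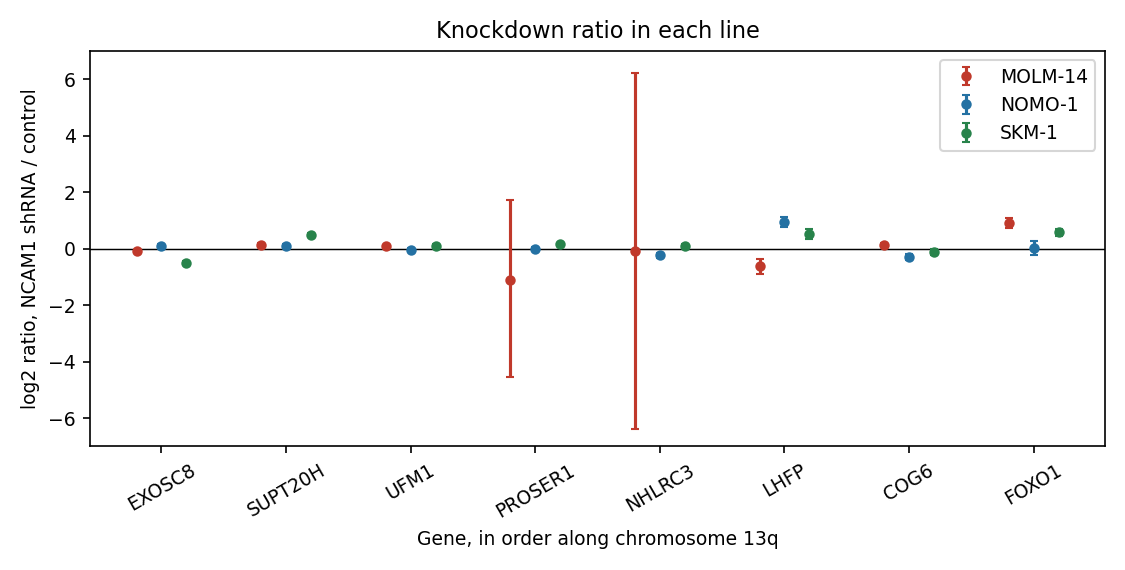
Log2 ratio of the NCAM1 shRNA library over the control shRNA library for each of the 8 genes in each line, with exact conditional 95% intervals from the reads (counting error only). The MOLM-14 intervals of NHLRC3 and PROSER1 are wide because they rest on 1 to 4 reads, and LHFP is below 0 in MOLM-14 and above 0 in NOMO-1 and SKM-1.

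Genes that work with the members were read from 9 lists of partners and relatives, 82 genes in all, of which 76 were tested. None was near 0 in MOLM-14, against 0.975% of the genes at 100 or more in the other lines. The pair was chosen for being near 0, so nothing is read from this. In the knockdown comparison limma, edgeR and DESeq2 each called 0 of the 76, and 1 (TADA3, a SAGA adaptor) had an unadjusted limma p under 0.05. Between NOMO-1 and SKM-1, 9 of 76 were called (11.8%, against 13.9% of all genes), 4 higher and 5 lower in NOMO-1. The lists are described by counts and medians beside those of all genes tested, of which 9661 were higher and 9914 lower in the knockdown mean, with a median of -0.0072.

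Of 14 RNA exosome genes, the partners of EXOSC8, 7 were higher and 7 lower in the knockdown mean, with a median of 0.021, and none was called between NOMO-1 and SKM-1. DIS3, a catalytic subunit encoded on chromosome 13 too, had a log2 difference of 0.90 in MOLM-14 from the other lines, beside a list median of -0.21. Of 18 SAGA genes, the partners of SUPT20H, 7 were higher and 11 lower (median -0.035). TADA3 had a mean log2 knockdown difference of -0.54 ± 0.12 (SD, n = 3 lines; limma adjusted p = 0.779). TRRAP, the large scaffold of SAGA, was higher in NOMO-1 than in SKM-1 by 1.30 (limma adjusted p = 0.0204).

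Of 7 genes of UFM1 attachment and removal, 2 were higher and 5 lower in the knockdown mean (median -0.11). Between NOMO-1 and SKM-1, UFC1, the conjugating enzyme, was lower in NOMO-1 by a log2 difference of -1.53 (limma adjusted p = 0.0134). UFC1 had 4852 and 4883 in MOLM-14, 2043 and 2619 in NOMO-1, and 6366 and 7037 in SKM-1, without overlap. UFM1 itself was not called in that comparison.

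Of the 7 other COG subunits, 3 were higher and 4 lower in the knockdown mean (median -0.029). COG5 was lower in NOMO-1 than in SKM-1 by -1.47 (limma adjusted p = 0.0162), while COG6 had -0.022 there (limma adjusted p = 0.960). COG3, also on chromosome 13, had a log2 difference of 0.87 in MOLM-14 from the other lines, near the 0.81 of COG6. COG5, which is not on that chromosome, had one of 0.96, which lay mostly against NOMO-1. It had 2828 and 2819 in MOLM-14, 857 and 890 in NOMO-1, and 2531 and 2301 in SKM-1. COG3 had 2848 and 2903 in MOLM-14 and 1427 to 1670 in the 4 other libraries. COG3 and COG5 were the listed subunits above all 4 other libraries in MOLM-14.

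PROSER1 is linked to 10 listed TET and UTX complex genes, of which 3 were higher and 7 lower in the knockdown mean (median -0.19). OGT, the O-GlcNAc transferase, had -0.26 ± 0.14 and KDM6A -0.26 ± 0.13 (SD, n = 3 lines), both without a call. KDM6A was higher in NOMO-1 than in SKM-1 by 0.99 (limma adjusted p = 0.0430) and KMT2C, a histone methyltransferase, lower by a log2 difference of -1.02 (limma adjusted p = 0.0496). In MOLM-14 the list had a median log2 difference of 0.079 from the other lines, where PROSER1 had -10.12.

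No relative of FOXO1 was called in the knockdown comparison: FOXO3 and FOXO4 had mean log2 knockdown differences of -0.14 and -0.15, and FOXO6 0.18. Of 14 tested genes known as FOXO targets, 6 were higher and 8 lower in the knockdown mean (median -0.097). Between NOMO-1 and SKM-1, 3 of the 14 were called, against 13.9% of all genes tested. A link to the lower FOXO1 in NOMO-1 was not tested. SESN3, a stress-induced sestrin, and CDKN1B, the cell-cycle inhibitor p27, were lower in NOMO-1 by log2 differences of -1.77 and -1.46 (limma adjusted p = 0.0251 and 0.0467). SESN1, another sestrin, was higher by 1.30 (limma adjusted p = 0.0276). Among the families of the remaining members, LHFPL2 had a mean knockdown difference of 0.62 ± 1.22, NHLRC2 of 0.41 and NHLRC4 of -1.25, none called.

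The genes most like the pair were looked for among 12676 candidates, by the root mean square difference of the log2 levels over the 6 libraries after each gene's mean was removed. NHLRC3 and PROSER1 differed from each other by 0.266 on this measure. SCRN1 was nearest to NHLRC3 (0.257), followed by COL4A5 (0.361), HDGFRP3 (0.377), SVIP (0.423) and ME3 (0.436). HDGFRP3 was nearest to PROSER1 after NHLRC3 itself (0.278), followed by SCRN1 (0.309), ME3 (0.478), RAB32 (0.502) and COL4A5 (0.516). None of these 6 is on chromosome 13: they lie on chromosomes 6 (RAB32), 7 (SCRN1), 11 (SVIP and ME3), 15 (HDGFRP3) and X (COL4A5). All were near 0 in MOLM-14, with 0 to 7.81 normalized counts there and 654 to 11389 in the other lines. The measure uses the same MOLM-14 values for which the pair was chosen, so that these genes are near 0 there is no finding.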

How the data were processed

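Messenger RNA was measured in 6 libraries, as described above. To make the signal values, the authors scaled each library's gene counts by a single size factor. A second deposited table holds log2 values made from them by a transformation the headers do not name. Per the submitters' processing notes, build hg19 was used with STAR, HTSeq 0.6.1p1, bcl2fastq 1.8.4 and DESeq2 1.12.4. The annotation and the strand setting of the counting are not stated there.

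Whole reads were recovered for 100% of values (tolerance 0.001). Genes were tested with limma 3.58.1 (R 4.3.3, two-sided, with a mean-variance trend) on log2(normalized count + 1) over the 19575 genes of mean 10 or more, with the cell line as block, Benjamini-Hochberg adjusted. In that model NOMO-1 and SKM-1 were compared from 2 libraries each, with the shRNA as the other term. The 2 libraries of a cell line form a pair, and after subtracting group means they correlated, over genes, at 0.850, 0.863 and 0.710. Alternatives were other pseudocounts and filters, total-count scaling, the transformed values, edgeR 4.0.16 and DESeq2 1.42.0 on recovered reads, no block, and leaving out lines or, added after seeing the data, libraries. On simulated data for the knockdown comparison over 19575 genes, limma called 2 of 67 genes at a 2-fold change, 37 of 67 at 4-fold and 58 of 66 at 8-fold, and made 5 false calls.

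The members and lists were chosen with earlier results of these data known. Named were all members, window genes of mean 50 or more, up to 4 genes per list by knockdown p, and the 5 genes most like NHLRC3 and PROSER1; DIS3, COG3 and genes called between NOMO-1 and SKM-1 outside that rule were named after their values were seen. GENCODE release 29 matched 32263 of 34114 gene IDs and served for order, exon length and type. Intervals are exact and cover counting error only.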

Additional observations from a re-analysis of the deposited data

How the results depend on the processing

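NHLRC3 and PROSER1 were the members near 0 in MOLM-14 under all 5 other definitions run, with 2 members in each. The pair was chosen for these values, so nothing is read from this. The size of their difference depends on the scale. For NHLRC3 (-10.32) it was -10.71 with a pseudocount of 0.5, -8.19 with a pseudocount of 8, -10.12 against NOMO-1 alone and -10.52 against SKM-1 alone. For PROSER1 (-10.12) it was -8.67 with a pseudocount of 8, -9.67 in control libraries and -10.56 in knockdown libraries. The FOXO1 difference (0.07) turned to -0.034 with total-count scaling, -1.15 against SKM-1 alone and -0.24 in control libraries.

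Counts of near-0 genes moved with the limits. MOLM-14 (108) had 206 with under 20 against 50 or more, 166 with under 5% of the others and 207 in knockdown libraries alone. NOMO-1 (68) had 130 with under 20 against 50 or more. SKM-1 (86) had 190, 132, 143 (knockdown alone) and 149 (control alone).

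Without the pairing by line (no replicate block) limma called 0 knockdown genes, and 141 had an unadjusted p under 0.05. The knockdown count was 43 with DESeq2, which also called 4159, against 2723, between NOMO-1 and SKM-1. With 1 library left out, an alternative added after seeing the data, the latter count was 0 to 5726. Differences then ranged from -0.090 to 0.29 for SUPT20H, -0.47 to 0.11 for PROSER1, -0.53 to 0.47 for LHFP and -0.17 to 0.12 for COG6, all uncalled, and EXOSC8 was called without the SKM-1 control library (0.89, limma adjusted p = 0.0322). The cause was not tested. Leaving out 1 line, uncalled knockdown differences ranged from -0.30 to 0.0034 for EXOSC8. They turned sign for NHLRC3 without NOMO-1 (0.014), PROSER1 without MOLM-14 (0.068) and LHFP without NOMO-1 (-0.054). Between NOMO-1 and SKM-1, LHFP turned to 0.015 with DESeq2, 0.032 with edgeR and 0.033 with total-count scaling, and COG6 to 0.010 with edgeR and 0.041 with total-count scaling.

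With 1 read per library in MOLM-14, depth limits the NHLRC3 ratio to its wide interval.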
